A study of Mus musculus with 6 samples.

Results

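The genes that build and move microtubules were followed here across the Treg arrays: kinesins, cytoplasmic dynein with its dynactin complex, and tubulins. Members were every probe set whose platform annotation names a single symbol that begins with Kif, Dync, Dynl, Dctn, Tuba, Tubb or Tubg. The rule found 62 genes measured by 122 probe sets, of 12393 genes and 20380 single-symbol probe sets on the array. By the known roles of their products they fell into 9 mitotic kinesins, 15 transport kinesins, 5 other kinesins, 15 dynein and dynactin genes, 12 tubulins and 6 genes of gamma-tubulin and its complex. CD4+CD25+ Treg cells, isolated with magnetic beads, were measured on 6 Affymetrix Mouse430A arrays. The HDAC11-/- group held 3 arrays of cells from fl-HDAC11/Foxp3cre mice, in which a Cre recombinase made with Foxp3 removes the floxed Hdac11 gene only in cells that have switched Foxp3 on. The WT group held 3 arrays of cells from mice labelled wild type C57BL6, without the floxed gene or the Cre, so the deletion, the Cre and the floxed background cannot be told apart. Both genotypes were on the C57BL/6 background, and the mice were generally 6 to 8 weeks old.

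Values are log2 expression levels as deposited, and a difference is HDAC11-/- minus WT on that scale. A gene is called higher or lower where, on the gene's brightest probe set, the adjusted p was under 0.05 in limma over all 22626 tested probe sets and the difference at least 1.5-fold. The design text gives 3 independent samples, but whether each came from separate mice is not stated, so p-values measure the spread between these samples. Arrays of 1 genotype correlated at 0.997 or more, and arrays of different genotypes at 0.985 to 0.988. The files hold no detection calls, so the brightest of 27 bacterial control probe sets on each array, between 5.06 and 5.48, served as the level below which a gene is called dim. This level averaged 5.14 on HDAC11-/- arrays and 5.39 on WT arrays, so a signal between them is more readily called dim in WT Tregs. Hdac11 itself lay at 6.36, 6.28 and 6.22 in HDAC11-/- Tregs, against 6.31, 6.37 and 6.53 in WT Tregs (log2 fold change -0.12, adjusted p = 0.222 in limma). The sources used here do not say whether its probes lie in the deleted part, so this probe set checks neither the deletion nor the labels. Cd4 and Il2ra, which define the sort, were above the controls on all 6 arrays, whereas the Foxp3 probe set was dim on all 6.

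Microtubules are hollow filaments of alpha- and beta-tubulin that grow mostly from gamma-tubulin rings. Most kinesins walk toward the growing end of a microtubule, some of them carrying vesicles and organelles through the resting cell and others pushing, sliding or taking apart the microtubules of the mitotic spindle. Dynein, held to its cargo by dynactin, walks the other way, and in T cells it helps to draw the centrosome to the contact with an antigen-presenting cell. Mitotic kinesins are made mainly in dividing cells, while the transport motors and the main tubulins are made all the time.

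The clearest difference lay in the mitotic kinesins. Of the 9 measured, 8 were called higher in HDAC11-/- Tregs and none lower, with a class median log2 difference of 1.43. Of the 62 members, 12 were called higher and 2 lower, against 3.46% of all genes called higher and 3.72% called lower. The other 4 higher calls were the motor gene Kif16b and the tubulin genes Tubb2a, Tubb4b and Tuba1a, and the 2 lower calls were Kif5c and Dynlt1f. With the adjusted p alone, 25 members were higher and 15 lower, beside 22.9% and 23.2% of all genes, and 22 members passed in neither direction. Without overlap between genotypes, 26 members were higher and 19 lower, beside 3489 and 3672 of all 12393 genes. The median difference over all members was 0.04, and that over all genes was -0.04. No test between the classes was run, and they are described by these counts and medians. Where a class had no call in a direction, SAM, a permutation-based alternative, gave none either. At an unadjusted p under 0.05 in limma those zero counts become 0 mitotic kinesins lower, 6 dynein and dynactin genes higher, 4 tubulins lower, 2 genes of gamma-tubulin and its complex higher and 4 lower, and 1 other kinesin higher and 0 lower.

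**Figure D1:**
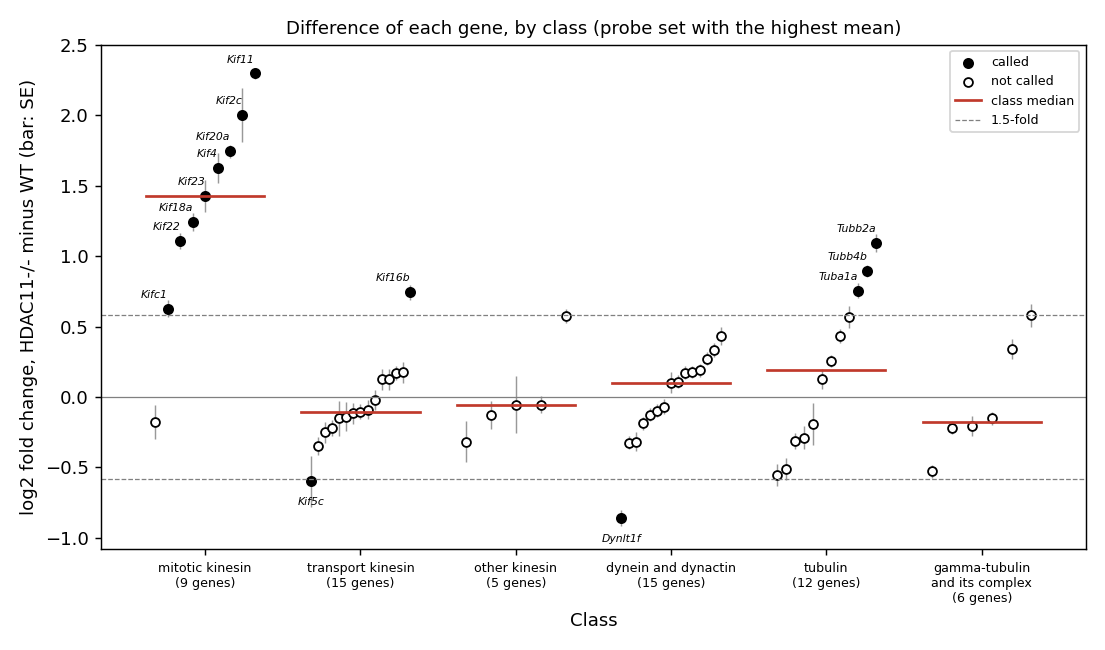
Each point is 1 member gene at its log2 fold change (HDAC11-/- minus WT, y axis; bar, SE) by class, filled where called, with a red line at each class median and dashed lines at 1.5-fold. The mitotic kinesins had a median of 1.43, and the other classes had medians from -0.18 to 0.19, close to the -0.04 of all genes.

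Promoter sequence of 7 called genes is shown because genes of mitosis are known for a pair of promoter elements, the cell cycle genes homology region, or CHR (TTTGAA), through which the DREAM and MuvB complexes act, and the CCAAT box bound by NF-Y. RefSeq promoters of build GRCm38.p6, from 250 bases before to 50 bases after the annotated start, were at hand for 48 of the 62 members. Each of the 7 shown holds a TTTGAA match. The called genes Kif18a and Tuba1a, whose promoters were at hand and lack it, are not shown, so the stretches are not a sample of the called genes. The stretches below run 5′ to 3′ along the gene, and capitals mark TTTGAA or CCAAT, which appear as TTCAAA or ATTGG where they are read on the opposite strand. The 6 kinesin stretches span the 130 bases before the start and the first 25 after it, and that of the beta-tubulin gene Tubb4b spans the 250 bases before its start.

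Kif11, chr19:37376252-37376406, plus strand: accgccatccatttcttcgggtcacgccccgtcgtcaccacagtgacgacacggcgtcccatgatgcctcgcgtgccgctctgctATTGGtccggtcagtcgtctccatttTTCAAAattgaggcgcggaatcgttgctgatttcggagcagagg
Kif2c, chr4:117178748-117178902, minus strand: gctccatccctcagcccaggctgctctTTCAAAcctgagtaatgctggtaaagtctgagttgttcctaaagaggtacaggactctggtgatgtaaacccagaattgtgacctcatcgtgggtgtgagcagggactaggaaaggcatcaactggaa
Kif4, chrX:100625935-100626089, plus strand: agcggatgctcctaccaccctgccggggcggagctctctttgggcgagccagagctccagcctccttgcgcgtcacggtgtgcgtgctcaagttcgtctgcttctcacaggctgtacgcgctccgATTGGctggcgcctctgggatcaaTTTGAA
Kif23, chr9:61946775-61946929, minus strand: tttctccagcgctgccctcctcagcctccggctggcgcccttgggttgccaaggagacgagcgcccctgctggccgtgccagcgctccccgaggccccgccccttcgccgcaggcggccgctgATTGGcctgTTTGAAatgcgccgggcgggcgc
Kif22, chr7:127042396-127042550, minus strand: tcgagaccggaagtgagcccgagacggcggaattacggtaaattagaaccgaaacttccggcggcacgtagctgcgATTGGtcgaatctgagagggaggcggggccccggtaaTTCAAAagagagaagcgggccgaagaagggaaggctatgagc
Kifc1, chr17:33890609-33890763, minus strand: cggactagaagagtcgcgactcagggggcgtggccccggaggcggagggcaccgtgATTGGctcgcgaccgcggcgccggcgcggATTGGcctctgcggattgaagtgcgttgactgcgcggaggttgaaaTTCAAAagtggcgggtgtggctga
Tubb4b, chr2:25224703-25224952, minus strand: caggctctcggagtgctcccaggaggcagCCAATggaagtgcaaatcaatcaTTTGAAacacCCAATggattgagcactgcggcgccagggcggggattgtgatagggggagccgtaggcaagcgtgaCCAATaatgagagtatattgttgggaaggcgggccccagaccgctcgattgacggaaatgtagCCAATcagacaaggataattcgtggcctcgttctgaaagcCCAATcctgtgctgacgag

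In 5 of these kinesin promoters, the exception being Kif2c, a CCAAT box stood upstream of a TTTGAA hexamer near the start. In Kif11 the hexamer lay at -19 to -14 and the CCAAT box at -45 to -41, and in Kif22 they lay at -17 to -12 and -54 to -50. Kif23 held its hexamer at 3 to 8 and its CCAAT box at -7 to -3, and Kif4 at 20 to 25 and -5 to -1. Both elements were thus nearer each other in Kif23 than in Kif11 or Kif22. The Tubb4b stretch held 5 CCAAT boxes, the nearest to the start at -19 to -15, and 1 hexamer at -198 to -193.

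Searched on both strands, TTTGAA was found in 7 of the 8 mitotic kinesin promoters (87.5%), against 17.9% of all 32851 promoters of the same length. CCAAT was found in 6 of the 8 (75.0%), against 37.4% of all promoters, and both elements together in 6 of the 8, against 6.95%. Kif18a was the mitotic kinesin with neither, and Kif2c had the hexamer alone. Of the 13 transport kinesin promoters 1 held TTTGAA and 5 held CCAAT, as did 1 and 5 of the 15 dynein and dynactin promoters. In the 9 tubulin promoters the counts were 2 and 5, and the 4 promoters of gamma-tubulin and its complex held neither. The related hexamer TTTAAA was found in 1 of the 8 mitotic kinesin promoters (13.2% of all promoters) and the E2F site GGCGGGAA in none (2.19%). Kifc1 and Kifc5b are near-identical copies, so their promoters are not independent, and Kif20a was not in the promoter table used. A match here describes the letters of the sequence, not a bound site or a cause.

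**Figure D2:**
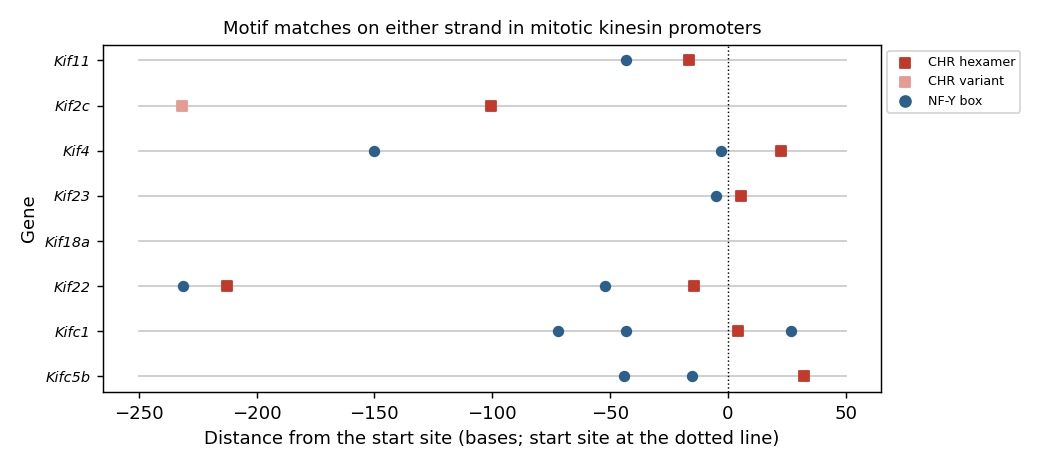
Positions of the CHR hexamer (TTTGAA), its variant (TTTAAA) and the NF-Y box (CCAAT) on either strand in the 8 mitotic kinesin promoters, against the distance from the start site in bases. In 6 of the 8 a hexamer and an NF-Y box occur together, Kif2c has no NF-Y box and Kif18a has no match.

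Among the mitotic kinesins, the spindle motors Kif11 and Kif2c had the widest differences. Kif11 (Eg5) slides the 2 spindle poles apart. It lay at 7.59, 7.56 and 7.55 in HDAC11-/- Tregs, against 5.25, 5.26 and 5.29 in WT Tregs. The groups were separated by many times their spread, but only 1 of the 3 WT arrays was above the bacterial controls, and the WT mean of 5.27 lay below the mean of their brightest probe sets, 5.39. The fitted log2 fold change of 2.30 ± 0.04 (SE, n = 3 each, adjusted p = 1.65e-06 in limma) is therefore set against a level not above background. Its other probe sets did not all give that size. One gave 7.64, 7.58 and 7.52 in HDAC11-/- Tregs with all 3 WT arrays dim, which is at least 4.56-fold higher, counted against the brightest control. The remaining one differed by only 0.19, at 6.52, 6.53 and 6.47 in HDAC11-/- Tregs and 6.25, 6.39 and 6.32 in WT Tregs. It was past the adjusted p but not called.

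Kif2c (MCAK), which takes microtubules apart at the kinetochore and so corrects wrong attachments, lay at 7.74, 7.25 and 7.68 in HDAC11-/- Tregs, against 5.25, 5.53 and 5.89 in WT Tregs. The spread was wider than for Kif11, with SDs of 0.26 and 0.32, but the groups did not overlap. Only 2 of the 3 WT arrays were above the bacterial controls. The log2 fold change was 2.0 ± 0.19 (SE, n = 3 each, adjusted p = 0.000374 in limma). A second Kif2c probe set was also called, with a fitted difference of 1.40 against a WT level above the controls on 1 array. The remaining ones gave 0.14 and -0.23 without passing the adjusted p, and the one with -0.23 was dim on every array. Kif18a, which damps the swings of chromosomes at the spindle centre, lay at 7.10, 7.19 and 7.06 in HDAC11-/- Tregs, against 5.97, 5.81 and 5.84 in WT Tregs. Its single probe set gave a log2 fold change of 1.24 ± 0.06 (SE, n = 3 each, adjusted p = 3.32e-05 in limma).

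The chromosome-borne motors followed the same direction. Kif4, which organises chromosome arms and shortens the overlap of microtubules in anaphase, lay at 7.21, 7.05 and 7.35 in HDAC11-/- Tregs, against 5.63, 5.69 and 5.40 in WT Tregs. Its log2 fold change was 1.63 ± 0.10 (SE, n = 3 each, adjusted p = 7.99e-05 in limma). All 3 WT arrays were above their own bacterial controls, but the WT mean of 5.58 was not far above them. Kif22 (Kid), which pushes chromosome arms away from the poles, lay at 9.38, 9.38 and 9.43 in HDAC11-/- Tregs, against 8.38, 8.23 and 8.26 in WT Tregs. All 3 of its probe sets were called, with differences of 1.11, 1.17 and 1.67, and none of them overlapped between genotypes.

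The motors of cytokinesis were higher as well. Kif20a (MKLP2), which carries the chromosomal passenger complex to the midzone, lay at 7.92, 7.92 and 7.94 in HDAC11-/- Tregs, against 6.24, 6.13 and 6.19 in WT Tregs. The 3 values of each genotype were close together, and the log2 fold change was 1.74 ± 0.05 (SE, n = 3 each, adjusted p = 3.03e-06 in limma). Kif23 (MKLP1), which bundles the midzone microtubules as part of centralspindlin, lay at 7.93, 7.99 and 7.90 in HDAC11-/- Tregs, against 6.60, 6.25 and 6.68 in WT Tregs. Both motors were thus apart from WT on every array, and Kif23 differed by 1.43 ± 0.11 (SE, n = 3 each, adjusted p = 0.000182 in limma). A second Kif23 probe set was called, but it was above the controls on only 1 HDAC11-/- array and no WT array, so no fold is given, and the last overlapped between genotypes.

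Kifc1 (HSET), a motor that walks toward the minus end and gathers spindle poles, had the smallest called difference of the class. It lay at 8.91, 8.88 and 8.92 in HDAC11-/- Tregs, against 8.35, 8.16 and 8.32 in WT Tregs, a log2 fold change of 0.63 ± 0.06 (SE, n = 3 each, adjusted p = 0.000458 in limma). The groups did not overlap, but the size is near the 1.5-fold threshold: on a scale set by 12 reference genes it was 0.51, and without WT replicate 2 it was 0.57, both uncalled. Its near-identical copy Kifc5b, which shares sequence with it so that their signals are uncertain, gave 4.78, 4.95 and 4.89 in HDAC11-/- Tregs, against 5.09, 4.79 and 5.28 in WT Tregs. Kifc5b was dim on all HDAC11-/- arrays and on all but 1 WT array, its groups overlapped, and no fold is given. Over the class, 13 of 18 probe sets were called higher and none lower, beside 8.68% of all single-symbol probe sets called in either direction.

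**Figure D3:**
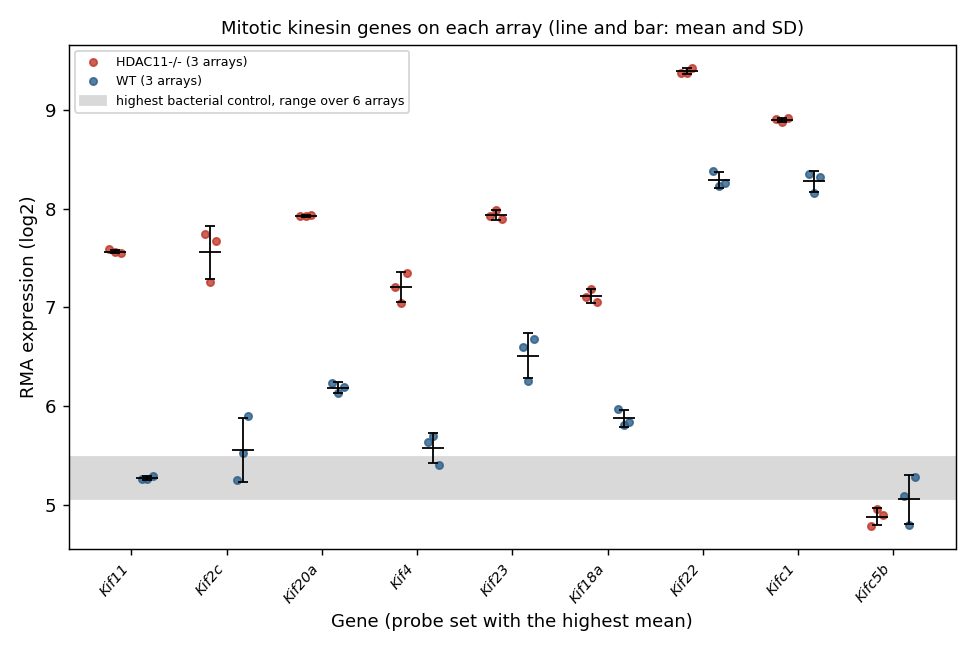
Log2 expression level of each mitotic kinesin gene on the 6 arrays (brightest probe set), with HDAC11-/- left of WT, mean and SD as line and bar, and the range of the brightest bacterial control over arrays as a grey band. In 8 of the 9 genes all HDAC11-/- points lie above all WT points, as in 3489 of all 12393 genes. Kif11 in WT lies in the control band, as do WT replicate 1 of Kif2c, WT replicate 3 of Kif4 and WT replicates 1 and 3 of Kifc5b.

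Genes that work with these motors moved in the same direction. Of a list of 32 spindle and cytokinesis partners, 28 were measured, 22 were called higher and none lower, with a median difference of 1.41. Bub1, a kinase of the spindle checkpoint, averaged 8.53 ± 0.06 in HDAC11-/- Tregs and 5.85 ± 0.01 in WT Tregs (SD, n = 3 each), a log2 fold change of 2.68 (adjusted p = 1.65e-06 in limma). Nusap1, which bundles spindle microtubules, differed by 2.46, and Birc5 (survivin), the passenger protein that Kif20a moves, by 2.76. Zw10, which recruits dynein to kinetochores, was the single partner lower at the adjusted p, with a difference of -0.20, and it was not called. Cenpe, a kinesin at the kinetochore whose symbol falls outside the rule, was dim on all 6 arrays. Of 10 general proliferation markers 9 were measured, 8 of them called higher, including Ccna2 (2.37), Top2a (1.81) and Ccnb2 (2.61), and 1 lower, Tyms, which was dim on all HDAC11-/- arrays and at least 1.49-fold lower there. In a bulk sample, fewer cells of a type and less RNA per cell cannot be told apart, and this holds for dividing cells too.

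Markers of other cell types also moved with genotype. The counts below stand beside 3.46% of all genes called higher and 3.72% called lower, or 22.9% and 23.2% at the adjusted p alone. Of the B cell markers 5 of 9 were called lower, and their summed linear level was 790.8 to 812.0 in HDAC11-/- Tregs, against 1231 to 1295 in WT Tregs. Dendritic cell markers were called lower for 4 of 8, at 2472 to 2549 in HDAC11-/- Tregs, against 5591 to 5766 in WT Tregs. All 4 were genes of MHC class II antigen presentation, H2-Aa (-1.60), H2-Ab1 (-1.43), H2-Eb1 (-1.22) and Cd74 (-0.79). They were also the brightest of the list and made up most of its sum. For CD8 T and NK cell markers the count was 2 of 9 lower, with sums of 1830 to 1957 in HDAC11-/- Tregs, against 2241 to 2322 in WT Tregs. The 2 called were Ncr1 (-1.04) and Fcer1g (-1.32). At the adjusted p alone 5 were lower and 1 higher, Cd8b1 (0.42), while Cd8a differed by -0.04 without passing. Monocyte and macrophage markers went the other way, 4 of 12 called higher, with sums of 603.6 to 662.0 in HDAC11-/- Tregs, against 482.9 to 505.6 in WT Tregs. Those called were C1qa, C1qb, C1qc and Vcam1, all at or near the background in WT Tregs. C1qb was dim on all 6 arrays, C1qa and C1qc on all WT arrays, and Vcam1 was above the controls on 1 WT array. At the adjusted p alone 7 were higher and 1 lower, Fcgr3 (-0.50). Of the defining markers, Ms4a1 (-1.84), Cd79a (-0.75) and Cd22 (-0.65) of B cells were above the controls on all 6 arrays and called lower, whereas Pax5 and Ebf1 were dim on all 6. Itgax, Flt3 and Zbtb46 of dendritic cells and Csf1r, Cd68 and Mpeg1 of macrophages were above the controls on all 6 arrays without a call, and Xcr1, Adgre1 and Cd14 were dim on all 6. Red cell and platelet markers had no calls among 6, and T cell and Treg markers none among 11. At the adjusted p alone 1 red cell and platelet marker was lower, Itga2b (-0.32). Of the T cell and Treg markers 1 was higher by that criterion, Ctla4 (0.50), and 3 were lower, Cd4 (-0.32), Gpr83 (-0.33) and Ikzf2 (-0.35). The part of these other cells in the kinesin and tubulin differences was not tested.

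The transport kinesins had 1 gene called higher and 1 lower among 15, with a class median of -0.10. Kif16b, which moves early endosomes toward the cell edge, was the higher one. It lay at 7.78, 7.79 and 7.87 in HDAC11-/- Tregs, against 7.01, 7.06 and 7.13 in WT Tregs, a log2 fold change of 0.74 ± 0.05 (SE, n = 3 each, adjusted p = 0.000124 in limma). Its second probe set gave 0.75 and was called too, so both Kif16b probe sets were above WT on every array. Kif5c, a kinesin-1 heavy chain found mainly in neurons, was the lower one, at 4.95, 4.92 and 4.60 in HDAC11-/- Tregs, against 5.81, 5.28 and 5.16 in WT Tregs. All HDAC11-/- arrays and 2 WT arrays were dim, so no fold is given beside the fitted -0.60 (adjusted p = 0.034 in limma). Leaving out any array except WT replicate 3 ended the Kif5c call, with differences from -0.66 to -0.40, and its second probe set, also dim, differed by less than 0.01.

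Kif5b, the kinesin-1 heavy chain found in most cells, had 5 probe sets that differed from each other. The brightest lay between 9.95 and 10.30 in HDAC11-/- Tregs and between 10.07 and 10.44 in WT Tregs, and the groups overlapped (log2 fold change -0.15, adjusted p = 0.363 in limma). Of its other 4 probe sets, a pair was higher by 0.32 and 0.28 with the adjusted p passed, and one differed by 0.03. The last lay at 7.35, 6.73 and 6.58 in HDAC11-/- Tregs, against 8.07, 7.47 and 7.06 in WT Tregs, a difference of -0.64 with an adjusted p of 0.117. On that probe set the arrays lay in the same order by number in both genotypes, and with the replicate number as a block in limma it was called lower (adjusted p = 0.00334), although the numbers were not shown to pair the samples.

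Kif1b, which carries mitochondria and synaptic vesicle precursors, had 7 probe sets that went both ways. The brightest was higher by 0.17 without being called, and the most positive difference was 0.38. A dimmer probe set lay at 5.63, 5.25 and 5.04 in HDAC11-/- Tregs, against 6.55, 6.19 and 6.28 in WT Tregs. It was called lower with a difference of -1.04 (adjusted p = 0.00263 in limma), as was another with -0.76, so the direction for Kif1b depends on the probe set. The remaining transport motors stayed within 1.5-fold. Kifc2 (-0.35), Kifc3 (-0.25) and the kinesin-2 subunit Kif3b (-0.22) were lower at the adjusted p. Kif3a, Kif3c, Kifap3, Kif1c, Kif13a, Kif17 and Kif5a, with differences from -0.12 to 0.17, did not pass it on their brightest probe sets, and neither did the dim Kif1a. Another Kifap3 probe set, above the controls on all 6 arrays, was lower at the adjusted p with a difference of -0.44, opposite in sign to the 0.12 of the brightest. Dim probe sets of Kif17 and Kif1a also passed it as lower.

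Of the 5 other kinesins only Kif2a was above the controls in both genotypes. Kif2a, a microtubule-depolymerising relative of Kif2c that acts at spindle poles and in interphase, lay at 9.48, 9.56 and 9.52 in HDAC11-/- Tregs, against 8.91, 9.00 and 8.93 in WT Tregs. The groups were well apart, and the log2 fold change of 0.57 ± 0.05 (SE, n = 3 each, adjusted p = 0.000238 in limma), 1.49-fold, stopped just short of the threshold. A second bright probe set gave the same 0.57, and a dimmer one was called at a fitted 0.66, but with all WT arrays at control level no fold is given for it. Kif9, Kif21a and Kif21b were dim in both genotypes, and Kif12 was above the controls on only 1 HDAC11-/- array. None of these 4 passed the adjusted p.

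**Figure D4:**
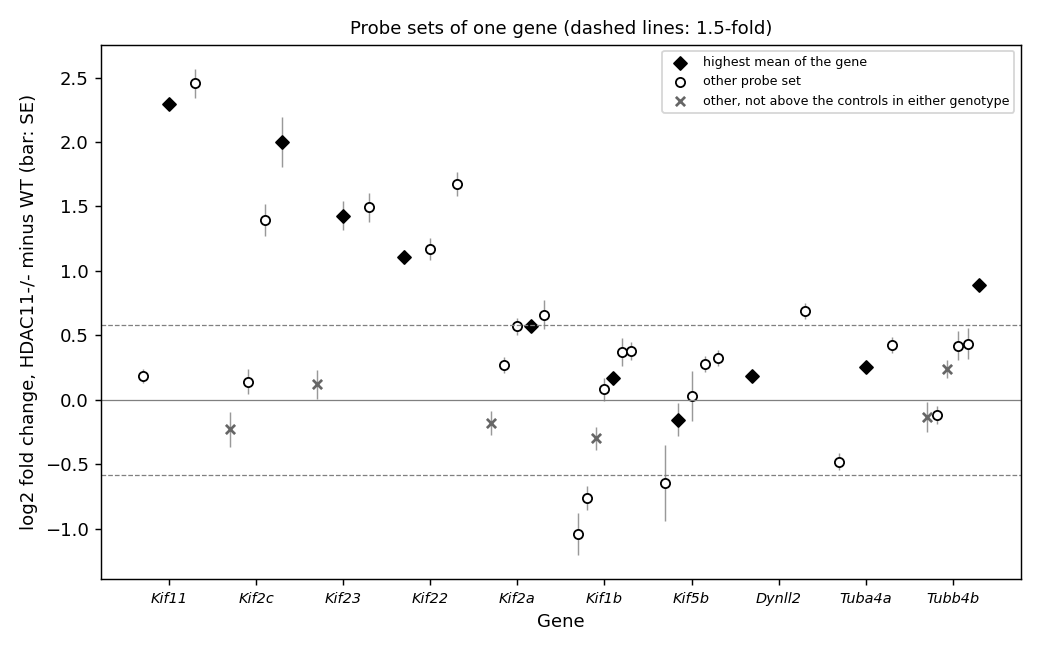
Every probe set of 10 genes at its log2 fold change (HDAC11-/- minus WT, y axis; bar, SE), with diamonds for each gene's brightest, circles for others and crosses for others that were dim in both genotypes. Kif1b spans -1.04 to 0.38 while the 3 Kif22 probe sets lie from 1.11 to 1.67.

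The dynein and dynactin genes had no gene called higher and 1 called lower among 15, with a class median of 0.10 that turned to -0.02 on the reference-gene scale. Dynlt1f, a copy of the Tctex1-type light chain that links dynein to cargo, lay at 7.62, 7.61 and 7.45 in HDAC11-/- Tregs, against 8.41, 8.44 and 8.42 in WT Tregs. It was lower without overlap, with a log2 fold change of -0.86 ± 0.06 (SE, n = 3 each, adjusted p = 0.000102 in limma). Mouse has several near-identical Dynlt1 copies and the probe set carries a suffix for probes that may bind more than 1 transcript, so which copy gave the signal is uncertain. Dynll1, the light chain shared by dynein and myosin V, averaged 12.04 ± 0.03 in HDAC11-/- Tregs and 11.93 ± 0.05 in WT Tregs (SD, n = 3 each). Its difference of 0.11 did not pass the adjusted p (0.107 in limma).

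Dynll2, the second light chain of that type, was higher by 0.19 on its brightest probe set. Its other probe set lay at 9.73, 9.75 and 9.72 in HDAC11-/- Tregs, against 9.04, 9.14 and 8.94 in WT Tregs, and was called with 0.69 (adjusted p = 0.000275 in limma). The probe sets shared a direction and differed in size. The motor subunit Dync1h1, the heavy chain that makes the force, differed by -0.13 without passing the adjusted p. Within dynactin, the long arm subunit Dctn1 (p150Glued) was lower by 0.32 on the log2 scale and Dctn2 (dynamitin) by 0.19, whereas Dctn3 was higher by 0.34 and Dctn6 by 0.43, all at the adjusted p and under 1.5-fold. Dctn5 did not pass it, nor did the brightest probe set of Dctn4 (-0.07), but 2 of the other 3 Dctn4 probe sets were higher at the adjusted p, by 0.24 and by a fitted 0.38 with all WT arrays dim. A second probe set of Dctn1 differed by 0.05 and one of Dctn6 by -0.12, neither past the adjusted p. Dync1li1, Dynlrb1 and Dynlt3 were higher by 0.17 to 0.27 at the adjusted p on their brightest probe sets. Other Dynlt3 probe sets gave -0.05 and 0.23, with overlap and without passing it. Dync1i2 did not pass, and the neuronal intermediate chain Dync1i1 was dim throughout.

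Proteins that regulate these motors or tie them to cargo gave few calls, 1 higher and 1 lower among 15 measured of 24 listed, with a median of -0.07. Pafah1b1 (Lis1), which opens and activates dynein, averaged 11.08 ± 0.03 in HDAC11-/- Tregs and 10.41 ± 0.04 in WT Tregs (SD, n = 3 each), a log2 fold change of 0.67 (adjusted p = 0.000104 in limma). Mapk8ip3 (JIP3), a scaffold that binds both kinesin-1 and dynein, averaged 8.56 ± 0.04 in HDAC11-/- Tregs and 9.36 ± 0.03 in WT Tregs, a log2 fold change of -0.80 (adjusted p = 5.35e-05 in limma). The kinesin light chain Klc1 (-0.48) and the dynein adaptor Hook2 (-0.38) were lower at the adjusted p without being called. By that criterion 7 of the 15 were lower and 2 higher, beside 23.2% and 22.9% of all genes.

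The tubulins had 3 genes called higher and none lower among 12, with a class median of 0.19. Tubb2a, a beta-tubulin, had the largest difference, at 8.84, 8.77 and 8.84 in HDAC11-/- Tregs, against 7.69, 7.84 and 7.64 in WT Tregs. The groups stood far apart, with a log2 fold change of 1.09 ± 0.06 (SE, n = 3 each, adjusted p = 5.78e-05 in limma), while a second probe set, above the controls on 2 HDAC11-/- arrays and no WT array, overlapped and did not pass the adjusted p (0.231). Tubb4b, the beta-tubulin whose promoter is shown above, lay at 10.97, 10.94 and 10.94 in HDAC11-/- Tregs, against 10.07, 10.08 and 10.02 in WT Tregs. It differed by 0.89 ± 0.04 (SE, n = 3 each, adjusted p = 2.73e-05 in limma). The other 5 probe sets of Tubb4b gave -0.13 to 0.44. Of these, the 1 above the controls on all 6 arrays differed by -0.12, opposite in sign, without passing the adjusted p (0.202 in limma). Those with positive values had all WT arrays dim. Averaged over all 6 probe sets the difference was 0.29 and not called. Tuba1a, an alpha-tubulin, lay at 11.96, 12.08 and 12.05 in HDAC11-/- Tregs, against 11.32, 11.29 and 11.22 in WT Tregs. Its log2 fold change was 0.76 ± 0.06 (SE, n = 3 each, adjusted p = 0.000131 in limma). The probe sets for Tubb2a and Tuba1a carry suffixes for shared sequence, and tubulin paralogs are alike enough that their signals may be mixed.

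Tuba4a, an alpha-tubulin, differed between probe sets. Its brightest lay at 12.73, 12.77 and 12.77 in HDAC11-/- Tregs, against 12.53, 12.48 and 12.50 in WT Tregs, higher by 0.25. A second was higher by 0.43 and the dimmest lower by 0.48 on the log2 scale, all at the adjusted p, and Tuba4a and Kif1b were the 2 members of 30 with several probe sets that passed it in both directions. Tubb5, the main beta-tubulin of lymphocytes, was higher by 0.43, at 12.49, 12.50 and 12.47 in HDAC11-/- Tregs and 12.07, 11.99 and 12.10 in WT Tregs. That separation was complete but under 1.5-fold, and a second bright Tubb5 probe set was higher by only 0.16 at the adjusted p. Tubb2b was higher by 0.57 with all WT arrays dim, and at least 1.26-fold. Tubb4a, a mostly neuronal beta-tubulin, and Tuba8 were lower, with differences of -0.55 and -0.51 at the adjusted p, not called. On the reference-gene scale both were called lower, at -0.67 and -0.63. Tubb3, the Tuba3b probe set and the pseudogene Tubb2a-ps2 were dim in both genotypes, and Tubb6 did not pass the adjusted p.

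**Figure D5:**
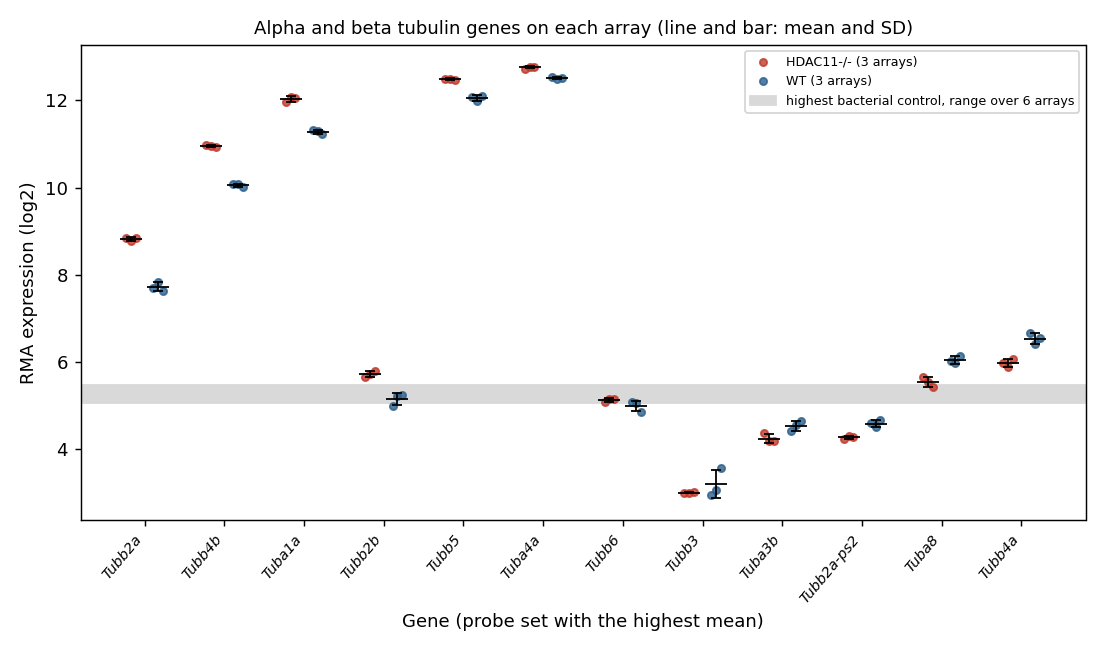
Log2 expression level of each tubulin gene on the 6 arrays (brightest probe set), with HDAC11-/- left of WT, mean and SD as line and bar, and the range of the brightest bacterial control as a grey band. Tubb2a, Tubb4b and Tuba1a are the called genes, higher by 1.09, 0.89 and 0.76, while Tubb4a and Tuba8 lie lower in HDAC11-/- Tregs without a call.

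None of the 6 genes of gamma-tubulin and its complex, the ring that seeds new microtubules, was called, and their median was -0.18. The ring subunits went in both directions. Tubgcp4 lay at 9.18, 9.11 and 9.22 in HDAC11-/- Tregs, against 9.67, 9.70 and 9.72 in WT Tregs, with no overlap and a log2 fold change of -0.53 ± 0.05 (SE, n = 3 each, adjusted p = 0.000305 in limma). A second Tubgcp4 probe set, above the controls on every array, differed by -0.23 and passed the adjusted p. Tubgcp3 (-0.22) and Tubgcp5 (-0.15) were lower at the adjusted p, whereas Tubgcp2 was higher by 0.58 and gamma-tubulin itself, Tubg1, by 0.34. Tubg2 was dim and did not pass.

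Genes around the filament gave 3 calls, all higher. Of 20 microtubule-binding and dynamics genes 18 were measured, 1 called higher and none lower, with a median of -0.01. That gene was Stmn1 (stathmin), which binds free tubulin and favours disassembly and is known to be abundant in dividing lymphocytes. Stmn1 averaged 11.27 ± 0.03 in HDAC11-/- Tregs and 9.76 ± 0.05 in WT Tregs (SD, n = 3 each), a log2 fold change of 1.51 (adjusted p = 5.07e-06 in limma). Map4, which stabilises microtubules, was higher by 0.45, and the growing-end protein gene Mapre3 differed by -0.44, both at the adjusted p only. Of 29 genes for tubulin folding and modification 23 were measured, with a median of 0.22. At the adjusted p 17 were higher and 3 lower, beside 22.9% and 23.2% of all genes. The called ones were Cct8, a subunit of the chaperonin that folds tubulin (0.76), and Pfdn1, of the prefoldin that hands tubulin to it (0.60). Lower at the adjusted p without a call were the folding cofactor Tbce (-0.49), the tubulin deacetylase Hdac6 (-0.40) and the dim Vash2.

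How the arrays are scaled bears on the smaller of these differences. On a scale set by 12 reference genes, the median over all genes was -0.16 instead of -0.04. On it 296 genes were called higher and 788 lower, against 429 higher and 461 lower as deposited. The reference genes were not themselves level: 4 of the 12 were higher in HDAC11-/- Tregs at the adjusted p and none lower. Hprt (0.51) and Pgk1 (0.49) were among the 4. This scale subtracts the mean difference of the 12 from every gene, so its lower calls partly reflect them. Set by the bacterial controls, the counts were 480 higher and 420 lower. The mitotic kinesin median was 1.31 on the first scale and 1.45 on the second, with 7 and 8 genes called higher. The tubulin median was 0.07 and 0.22, and the transport kinesin median was -0.22 and -0.08. So the mitotic kinesin difference was several times the size of any scaling shift, while the class medians of tubulins, transport kinesins and dynein were of that size.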

How the data were processed

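RNA of 6 Treg samples was amplified, labelled with biotin and hybridised to Affymetrix Mouse430A arrays. The log2 values were deposited by the authors after RMA normalization. Background correction, normalization and any mixing of paralogs through shared probes were taken as deposited. Of 22671 probe sets, 45 controls were left out. The platform annotation named 1 symbol for 20380 of the other 22626, several for 691 and none for 1555. All 62 member gene IDs matched RefSeq. The model, run in limma 3.58.1 (R 4.3.3), held genotype alone, with Benjamini-Hochberg adjustment over all 22626. Of several probe sets for a gene, the one brightest on average stood for it.

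The members and gene lists were chosen with earlier results of these data known. Named genes are, in each class, those called, the one with the highest level and those called only on a dimmer probe set, and up to 3 genes per list and direction. Others, such as Kifc5b, Tubb5, Pfdn1 and the dynactin subunits, were named after their values were seen. Alternatives were SAM over 20 labelings, other scales, thresholds and probe set choices, a replicate block and each array left out. Precision is limited by 3 arrays per genotype, whose SD had a median of 0.07 in HDAC11-/- and 0.09 in WT.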

Additional observations from a re-analysis of the deposited data

Results flagged for a closer look

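A probe set that names both Tuba3b and Tuba3a, alpha-tubulin genes found mainly in testis, lies outside the member rule because it names 2 genes. It gave 7.88, 7.77 and 7.74 in HDAC11-/- Tregs, against 7.09, 7.36 and 7.14 in WT Tregs, with no overlap. It was higher by 0.60 (adjusted p = 0.00162 in limma), a signal in data that the comparisons above did not use. The other probe set with the same names was higher by 0.46 and was not called, and the member probe set that names Tuba3b alone was dim on all 6 arrays. Which of the alpha-tubulin genes gave this signal was not tested.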

How the results depend on the processing

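Over 16 other settings, the 21 named genes gave 327 values, of which 298 kept their call or lack of one, 19 lost the call and 10 gained it. No called value changed sign, and of the uncalled ones Dynll1 did on the reference-gene scale (-0.01) and Kif1b with the mean of all probe sets (-0.16). Members called lower, 2 as reported, numbered 5 on the reference-gene scale, 1 on the bacterial control scale, 1 with probe sets under the median level left out, 15 without a fold threshold, 0 at 2-fold, 1 with the mean of all probe sets and 0 with probe sets without a suffix. At 2-fold no member was lower, while 8 were higher, by the same limma fit, in which 15 members were lower at the adjusted p. Members called higher, 12 as reported, numbered 25 without a fold threshold, 8 with probe sets under the median level left out and 8 without suffixed probe sets. Mitotic kinesins called, 8 as reported, numbered 4 with probe sets under the median level left out, which removed Kif11, Kif2c, Kif4 and Kif18a, and 5 without suffixed probe sets, where Kif11 fell back to the probe set with 0.19 and Kif20a and Kifc1 had none. Transport kinesins called, 2 as reported, numbered 1 on the bacterial control scale, 1 with probe sets under the median level left out, 6 without a fold threshold, 0 at 2-fold, 1 with the mean, 1 without suffixed probe sets and 3 with any probe set. Dynein and dynactin genes called, 1 as reported, numbered 10 without a fold threshold, 0 at 2-fold and 2 with any probe set. Tubulins called, 3 as reported, numbered 5 on the reference-gene scale, 10 without a fold threshold, 1 at 2-fold, 2 with the mean and 1 without suffixed probe sets.

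Leaving out 1 array at a time gave 12 to 14 members called higher, 1 to 2 lower, 7 to 8 mitotic kinesins, 1 to 2 transport kinesins, 1 dynein or dynactin gene and 3 to 5 tubulins. The 5 tubulins came without WT replicate 2, when Tubb2b (0.60) and Tubb4a (-0.62) were called too. SAM and an intensity trend with a robust prior changed none of these counts. Replicate numbers are shared between genotypes, but same-numbered samples deviated together with correlations of 0.23, -0.02 and 0.16, and 4 of 6 arrays correlated best with their own number, so the numbers were not taken as pairs. With the replicate block the counts stayed at 12 higher and 2 lower, and the 1 call it changed was the Kif5b probe set described above. Dim genes were limited by the background: 9 members were dim in both genotypes.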

Other observations

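Probe sets that name several members, or a member and a copy, gave further values. One naming Dynlt1a, Dynlt1c and Dynlt1f lay at 5.99, 6.07 and 5.98 in HDAC11-/- Tregs, against 7.21, 7.26 and 7.37 in WT Tregs, lower by 1.27 on the log2 scale (log2 fold change -1.27, adjusted p = 2.1e-05 in limma), whereas the pair that also name Dynlt1b differed by -0.07 and 0.34. One naming Tuba1b and the copy Gm5620 lay at 13.68, 13.75 and 13.78 in HDAC11-/- Tregs, against 13.30, 13.29 and 13.30 in WT Tregs, higher by 0.44. Those naming Tuba1c and Gm6682 were higher by 0.41 and 0.54. All of these groups were without overlap, which was common: 3489 of all 12393 genes were higher and 3672 lower without it. For the probe set with -0.07 the gap was minimal, 11.3862 in HDAC11-/- Tregs below 11.3886 in WT Tregs (adjusted p = 0.24 in limma). Apart from the Dynlt1a, Dynlt1c and Dynlt1f probe set none was called.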
